A study of Mus musculus with 36 samples.

Results

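RNA-seq libraries of B cells carrying C/EBPα R35A were compared between 18 and 120 hours post-induction (hpi), the last interval of the B cell to macrophage transdifferentiation (BMT) time course. The comparison takes 4 of the 36 libraries of the series, 2 replicates at each timepoint, chosen by construct and timepoint from the sample labels and not by any measured value. In this system primary B cells from the bone marrow of C57BL/6J mice were infected with a C/EBPα-ER-hCD4 retrovirus, in which C/EBPα is fused to the hormone-binding part of the estrogen receptor. hCD4+ cells were plated on inactivated mouse embryonic fibroblast (MEF) feeders, and 17β-estradiol was added to bring the fusion protein into the nucleus. R35A carries alanine in place of arginine 35 of C/EBPα. Cells were plated with IL-7, IL-3, FLT-3, mCSF-1 and mSCF, and feeders were removed by differential adherence before RNA extraction. The medium was later renewed without IL-7, so that the timepoints differ in IL-7 as well as in time, and these cannot be told apart. The 0 hpi libraries cited below for reference levels are from before induction. The labels call the R35A cells B-cells at 18 hpi and macrophages at 120 hpi. The wild-type construct (WT) and a second mutant, R35K with lysine at the same position, were sampled at the same times and serve as the comparisons. Because the factor is overexpressed from a retrovirus that also encodes C/EBPα, reads on Cebpa may come from the transgene or from the endogenous gene, and these cannot be told apart. No label or method says whether replicates came from separate mice, so p-values measure the spread between these samples.

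C/EBPα is a basic leucine zipper factor that drives the myeloid lineage together with the ETS factor PU.1, encoded by Spi1. Macrophages recognise, engulf and digest particles. They do so with pattern recognition and Fc receptors at the surface, an oxidase at the phagosome membrane and acid hydrolases in lysosomes, and they secrete chemokines and complement. B cell identity rests on Pax5, Ebf1 and the E proteins, which keep the genes of the pre-B cell receptor active.

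The 18 hpi libraries held 15252871 and 19155430 counted reads and the 120 hpi libraries 14647925 and 16702908. Values are given as CPM, the usual scaled count of edgeR, here relative to the TMM-adjusted library size. A count of 3 per library, taken here as the floor of detection, equals 0.155 to 0.240 CPM in these 4 libraries and covers counting error only. The 10 highest genes took 4.68 and 4.71% of reads at 18 hpi and 8.49 and 8.60% at 120 hpi. The libraries at 120 hpi detected 21195 and 21883 genes with at least 1 count, against 24186 and 25274 at 18 hpi. Between replicates the median squared difference was 1.112 times counting noise at 18 hpi and 2.032 times at 120 hpi. In the R35A time course the largest step in several lists lay between the libraries labelled 0 and 1 hpi, for example in the summed level of 25 mitosis genes (4770 and 4802 CPM at 0 hpi, 1105 and 1122 CPM at 1 hpi), whereas the 1, 3 and 6 hpi libraries lay close together.

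The labels were checked against marker lists. Macrophage markers were present at 18 hpi and higher at 120 hpi: Itgam had 118 and 112 CPM and then 554 and 594 CPM, and Adgre1, which encodes F4/80, had 109 and 115 CPM and then 1067 and 1165 CPM. The B cell markers Pax5 and Ebf1 were still detected at 18 hpi and were low at 120 hpi (values below), while Cd79a kept its level. Feeder RNA was present at 18 hpi. The 13 feeder fibroblast markers summed to 5881 and 5902 CPM at 18 hpi and to 678 and 676 CPM at 120 hpi, all 13 fell, and none was at 0 at 18 hpi. In bulk samples fewer cells of a type and less RNA per cell cannot be told apart. CPM values are relative to all RNA of a library. The part of the change in feeder RNA in the falls and in the rises below was not tested. Markers of other blood cells were low with the exception of Mmp8. Of 8 neutrophil markers, Mmp8 alone carried the level (863 and 847 CPM at 18 hpi, 2352 and 2534 CPM at 120 hpi), the defining gene Ly6g was at the floor in all 4 libraries and Retnlg was at 0. Mast cell and basophil markers summed to 22.4 and 25.3 CPM at 18 hpi, nearly all from Mcpt8, and to 5.36 and 5.39 CPM at 120 hpi, with Fcer1a at 0. Dendritic cell markers summed to 10.4 and 10.9 CPM and then to 4.32 and 4.46 CPM, T and NK cell markers to 1.30 and 2.28 CPM and then to 0.640 and 0.575 CPM with Cd3e at 0, and the 5 erythroid markers in the table to at most 0.650 CPM.

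Of 16988 genes tested, 9169 changed between 18 and 120 hpi in R35A cells (54.0%), 4171 upwards (24.6%) and 4998 downwards (29.4%), at 1.5-fold or more and an adjusted p of at most 0.05 (edgeR quasi-likelihood test, Benjamini-Hochberg adjustment over all genes tested). The median log2 fold change (120 over 18 hpi) over all genes tested was −0.06. Large changes were more often falls: 2582 genes fell and 1198 rose by over 4-fold, and 1202 fell and 196 rose by over 16-fold. The balance of all calls depended on the setting: rises outnumbered falls when any of the 4 libraries was left out (4587 to 4611 rises against 4336 to 4476 falls) and with a filter of at least 10 counts in both libraries of a group (4428 against 4209). Among the 9169 called genes the replicates of the timepoints did not overlap in 9155. That share was not set beside the share of all genes tested, so it lends no separate support to the calls. The counts of each gene list below are to be read against the percentages called over all genes tested. The lists were chosen with earlier results of these data known. A list's share above those percentages is therefore a description and not a test.

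**Figure D1:**
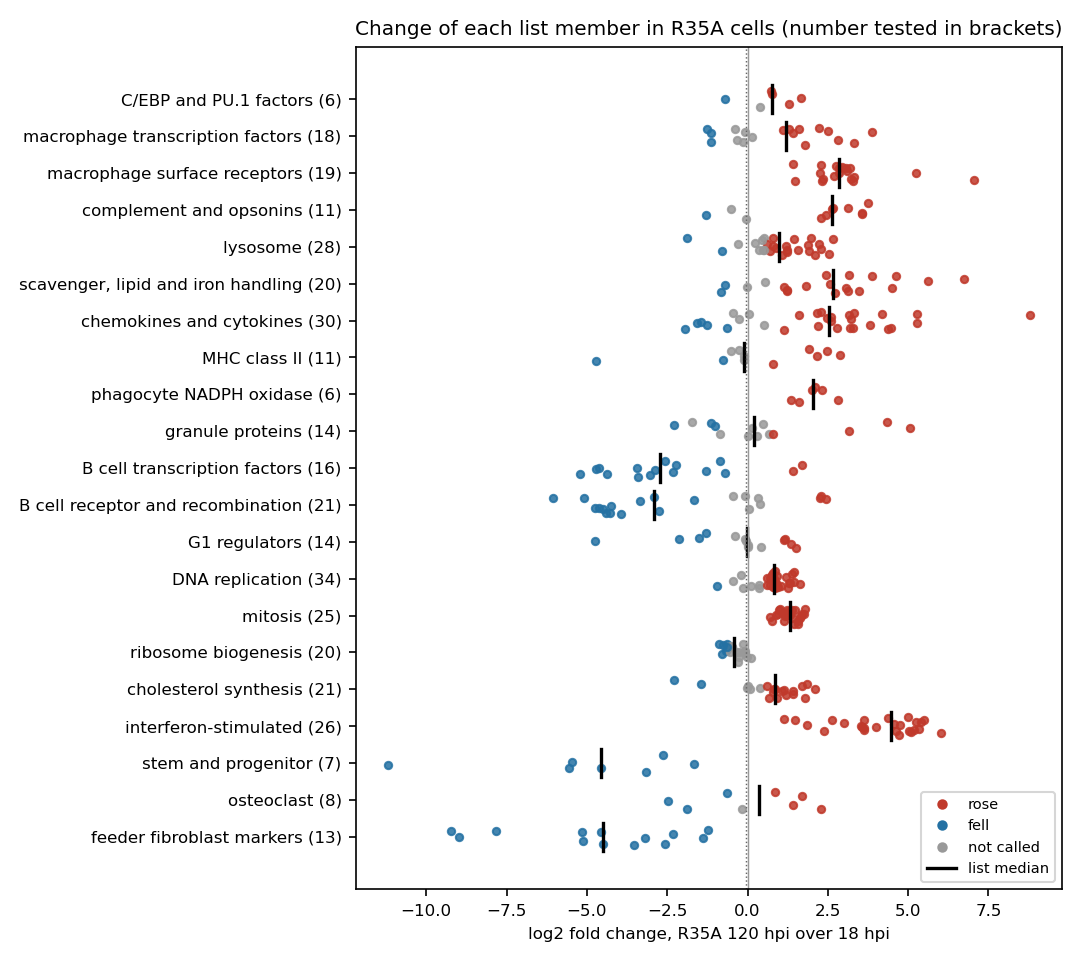
Each point is 1 gene, placed by its log2 fold change from 18 to 120 hpi in R35A cells (x axis), in 20 functional lists and the feeder fibroblast markers (rows). Red genes rose, blue fell and grey were not called. Black bars are list medians and the dotted line is the median of all genes tested (−0.06). Members of the surface receptor, NADPH oxidase, mitosis and interferon-stimulated lists all lie to the right, and feeder markers all lie to the left.

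Among the factors that drive the conversion, Spi1 rose from 113 and 118 CPM at 18 hpi to 379.9 and 350.0 CPM at 120 hpi (log2 fold change 1.66 ± 0.040 SE, edgeR adjusted p = 2.91e-60). Cebpa read 53.7 and 53 CPM and 141 and 119.7 CPM (2.44-fold, transgene and endogenous reads together). Cebpd and Cebpg, which encode partner factors of the same family, rose 1.68-fold and 1.7-fold. Cebpb, another member of the family, had 98.8 and 92.4 CPM and then 142 and 107 CPM and was not called. Carm1, which encodes an arginine methyltransferase, fell from 69.2 and 70.8 CPM to 40.5 and 44.7 CPM. These 2 genes lay near the threshold: without replicate 2 at 120 hpi Cebpb was called (log2 fold change 0.68), and without replicate 1 at 120 hpi Carm1 was not (−0.55). In the list of 6 tested factors and cofactors, 4 rose and 1 fell, with a median log2 fold change of 0.76. Of 18 macrophage transcription factors 10 rose and 3 fell (median 1.21). Maf, which encodes a large Maf factor of tissue macrophages, rose 6.98-fold. Tfec, a MiT family factor restricted to macrophages, rose from 14.3 and 13.3 CPM to 129.5 and 145 CPM, and Nr1h3, which encodes the oxysterol receptor LXRα, rose from 3.9 and 5.23 CPM to 12.2 and 10.6 CPM. Batf2 went from 0.59 and 0.414 CPM to 7.68 and 7.05 CPM. The 3 that fell were the immediate early gene Egr1 (439 and 440.2 CPM to 179.7 and 189.8 CPM), Bhlhe40 (834 and 849 CPM to 386 and 382 CPM) and Spic, a PU.1 relative of iron-recycling macrophages (6.44 and 4.77 CPM to 2.48 and 2.59 CPM).

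All 19 macrophage surface receptor genes rose, with a median log2 fold change of 2.85. Siglec1 on mm10 chr2:131069220-131086765, which encodes the sialic acid receptor CD169, rose from 12.9 and 13.4 CPM to 1767 and 1764 CPM. This was a log2 fold change of 7.06 ± 0.052 SE and the largest of the list. Fcgr1, the high-affinity IgG receptor, rose from 10 and 9.89 CPM to 364 and 385 CPM and Adgre1 9.93-fold. Cd14, the co-receptor for bacterial lipopolysaccharide, had 109 and 113 CPM at 18 hpi and 958 and 942 CPM at 120 hpi, which is 8.57-fold higher, and the timepoints did not overlap. The smallest rises were those of Csf2rb, the shared chain of the IL-3 and GM-CSF receptors (308 and 312 CPM to 799 and 843 CPM), and of Csf1r, the receptor for CSF-1 (622 and 631 CPM to 1743 and 1766 CPM). Tyrobp, the signalling adaptor DAP12, rose 4.81-fold. Itgam, which encodes CD11b, rose 5.01-fold and 68.7% of its exonic bases overlap a second protein-coding gene model on the same strand in GENCODE vM21, so its counts are uncertain.

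**Figure D2:**
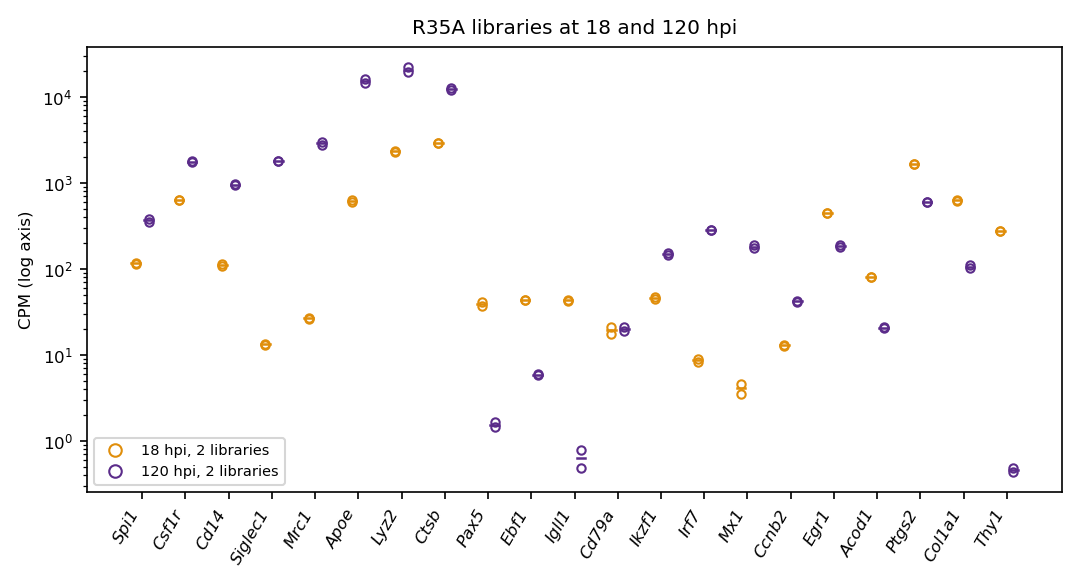
CPM of 21 genes (log axis) in the 4 R35A libraries. Open circles are single libraries and short bars the mean of 2. The replicates lie together and apart from the other timepoint except for Cd79a, whose libraries overlap (17.4 and 21.1 CPM at 18 hpi, 20.9 and 19.1 CPM at 120 hpi).

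Complement and opsonin genes rose in 8 of 11 cases (median 2.62). The 3 genes of C1q, the recognition unit of the classical pathway, rose together: C1qa from 9.04 and 8.86 CPM to 130.3 and 113 CPM, C1qb from 50.7 and 57.9 CPM to 655 and 628 CPM and C1qc from 29.9 and 30.3 CPM to 375 and 336 CPM. Gas6, a bridge between dying cells and TAM receptors, rose 4.85-fold and Cfp, which encodes properdin, 5.4-fold. Mfge8, another bridge to dying cells that fibroblasts also make, fell from 269 and 279 CPM to 115 and 108 CPM. Of 28 lysosome genes 19 rose and 2 fell (median 0.97). The proteases cathepsin B and cathepsin D were already abundant at 18 hpi: Ctsb rose from 2857 and 2878 CPM to 11774 and 12596 CPM and Ctsd from 2044 and 2051 CPM to 5616 and 5557 CPM. The Ctsd counts are uncertain, since 34.4% of its exonic bases overlap another gene model on the same strand. The larger rises were those of the asparaginyl protease gene Lgmn (6.36-fold), the protease gene Ctss (5.79-fold) and the proton pump subunit gene Atp6v0d2 (4.88-fold). The bone-resorbing protease gene Ctsk fell 3.68-fold and the glucosidase gene Gaa 1.73-fold.

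In the scavenger, lipid and iron list 16 of 20 genes rose and 2 fell (median 2.65). Mrc1, the mannose receptor CD206, rose from 25.7 and 27.1 CPM to 2733 and 2970.3 CPM (108-fold). Apoe, the apolipoprotein that carries cholesterol out of macrophages, rose from 599.9 and 625 CPM to 15874 and 14254 CPM. Cd5l, which encodes the secreted protein AIM, rose 48.8-fold and Marco, a class A scavenger receptor, 22.7-fold. Msr1 and Cd36, which take up modified lipoproteins, rose 8.7-fold and 2.37-fold, and Plin2, a coat protein of lipid droplets, 2.18-fold. Hmox1, which breaks down haem, fell from 2467 and 2505 CPM to 1418 and 1372 CPM and Spp1, osteopontin, from 2726 and 2701 CPM to 1508 and 1858 CPM. The fall of Spp1 was under the threshold without replicate 1 at 18 hpi (log2 fold change −0.58) or at 120 hpi (−0.45).

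Of 30 chemokine and cytokine genes 21 rose and 5 fell (median 2.53). The monocyte attractants Ccl2 and Ccl12 rose from 204 and 201 CPM to 1807 and 1880.1 CPM and from 0.846 and 0.622 CPM to 303 and 341 CPM. The latter was the largest change of the list (log2 fold change 8.79 ± 0.11 SE). Ccl3 and Ccl4, which attract monocytes and T cells, rose 20.9-fold and 22.2-fold. Ccl8 reached 55.8 and 56 CPM from 1.95 and 1.04 CPM, and the anti-inflammatory cytokine gene Il10 reached 25.2 and 22.7 CPM from 0.39 and 0.777 CPM. The chemokine genes of this cluster on chromosome 11 are related in sequence, so reads may be split between them. Against this, Acod1 at mm10 chr14:103046977-103056573, which encodes the enzyme that makes itaconate, fell from 80.2 and 79.8 CPM to 20.4 and 20.8 CPM. Ptgs2, the inducible cyclooxygenase, fell from 1639 and 1632 CPM to 595 and 604 CPM. The other 3 that fell were Cxcl3, Csf1 and Ccl22, the last from 2.28 and 2.23 CPM to 0.64 and 0.863 CPM.

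MHC class II genes split: 5 of 11 rose and 2 fell, with a median log2 fold change of −0.10, which lay between −0.12 and 0.70 over the alternative settings. The peptide-loading genes rose: H2-DMa had 21.9 and 19.5 CPM and then 119 and 112 CPM, and H2-DMb1 5.07 and 5.7 CPM and then 40 and 40.6 CPM. Cd74, the invariant chain, rose 4.49-fold, and H2-DMb2 and H2-Ob rose too. The antigen-presenting chains did not rise. H2-Ab1 had 15.2 and 14.8 CPM and then 14.7 and 13.4 CPM, H2-Aa 17.3 and 16.7 CPM and then 11.4 and 12.4 CPM, and neither was called. H2-Eb1 fell from 10.3 and 11.9 CPM to 6.16 and 6.9 CPM, under the threshold without replicate 2 at 18 hpi (log2 fold change −0.54). H2-Eb2, the other gene that fell, had 1 and 6 counts at 18 hpi and 0 at 120 hpi. Without replicate 2 at 18 hpi 0 of the 11 fell, and without replicate 2 at 120 hpi 1 fell. Ciita, the master regulator of the class II genes, stayed low (1.56 and 1.86 CPM and 1.68 and 1.51 CPM). All 6 NADPH oxidase genes rose (median 2.05), among them Cybb, the catalytic subunit, from 484 and 474 CPM to 2312 and 2489.8 CPM, the membrane partner gene Cyba 3.06-fold and the cytosolic subunit genes Ncf1 and Ncf4 7.06-fold and 2.56-fold. Of 14 granule protein genes 4 rose (Lyz2, Lyz1, Chil3 and S100a8) and 3 fell (Lcn2, Prtn3 and Ngp). Lyz2, the macrophage lysozyme, rose from 2299 and 2307 CPM to 19324 and 21931 CPM and its close copy Lyz1 from 1.5 and 1.86 CPM to 56.2 and 58.5 CPM, between which reads may be split. Lcn2 fell from 6.18 and 6.47 CPM to 3.12 and 2.66 CPM and Prtn3 from 3.84 and 3.57 CPM to 1.44 and 2.16 CPM.

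B lineage genes fell further after 18 hpi. Of 16 B cell transcription factor genes 14 fell and 2 rose (median −2.73). Pax5, which commits cells to the B lineage, fell from 40.7 and 36.4 CPM to 1.44 and 1.65 CPM, 24.6-fold. Its level at 0 hpi was 814 CPM. Ebf1 fell from 43.5 and 43 CPM to 5.92 and 5.83 CPM, Foxo1 from 74.7 and 70 CPM to 27.3 and 31 CPM and Tcf3, which encodes E2A, from 94.2 and 96.1 CPM to 61.9 and 54.9 CPM. Tcf3 was under the threshold without replicate 2 at 18 hpi (log2 fold change −0.58) or at 120 hpi (−0.51). Lef1 and Ikzf3 fell 37.3-fold and 26.2-fold. Ikzf1, the founding Ikaros gene, and Irf4 went the other way, Ikzf1 from 45 and 47.3 CPM to 154 and 145 CPM and Irf4 from 17.2 and 18.9 CPM to 51.2 and 46.4 CPM. Both had been higher at 0 hpi (395 and 173 CPM). Of 21 genes of the B cell receptor and of recombination 13 fell and 3 rose (median −2.92). The surrogate light chain genes Igll1 and Vpreb1 fell from 42.3 and 43.7 CPM to 0.48 and 0.791 CPM and from 19.4 and 17.6 CPM to 0.40 and 0.935 CPM. The signalling chains of the receptor showed no call: Cd79a had 17.4 and 21.1 CPM at 18 hpi and 20.9 and 19.1 CPM at 120 hpi, and Cd79b 34.3 and 34.5 CPM and 33.7 and 31.1 CPM. The kinase gene Btk rose 5.46-fold, and Cd2 and Cd72 rose 4.88-fold and 4.8-fold. Exons of Cd72 overlap Tesk1 on the opposite strand over 41.6% of their length, and the strand setting of the counting is not given in the sources used here.

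All 26 interferon-stimulated genes rose, with a median log2 fold change of 4.47, the highest median of the lists. These genes are switched on when interferon receptors activate the factor ISGF3. Stat2, which encodes a subunit of it, rose from 23.4 and 21 CPM to 258 and 254 CPM. Irf7, which amplifies interferon production, rose from 8.2 and 8.96 CPM to 280.2 and 283 CPM. The largest rise was that of Oasl2 (4.55 and 4.61 CPM to 291 and 300.3 CPM, log2 fold change 6.01 ± 0.082 SE). Mx1, a dynamin-like antiviral GTPase, rose 45-fold and Ifi44 42.4-fold. The smallest was that of Ifitm3, an antiviral membrane protein that was already at 605 and 618 CPM at 18 hpi and reached 1324 and 1389 CPM. In R35A cells the summed level of the list lay between 741 and 853 CPM from 1 to 18 hpi and at 4925 and 5047 CPM at 120 hpi.

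Upstream sequence was searched for the core of the element bound by ISGF3, GAAA repeated after a gap of 2 free bases, on both strands and in the 250 bases before each gene start (RefSeq promoters, GRCm38.p6). Of the 26 genes 20 had a promoter in the table and 9 of these 20 held the letters (45%), against 936 of 27025 genes in all (3.46%). A match is a description of the letters and not of a site in use. The 150 bases before the start are printed for 3 of the 9 genes, with the matching letters in capitals, because they show the element once and far from the start (Rsad2 and Ifit3) or as a repeat near it (Isg15). Rsad2 lies at chr12:26456453-26456602 on the minus strand, Ifit3 at chr19:34583379-34583528 on the plus strand and Isg15 at chr4:156200819-156200968 on the minus strand, and in Isg15 3 matches overlap. These genes were chosen for the letters after their values were seen. They rose 40.6-fold, 26.3-fold and 24.8-fold.
Rsad2: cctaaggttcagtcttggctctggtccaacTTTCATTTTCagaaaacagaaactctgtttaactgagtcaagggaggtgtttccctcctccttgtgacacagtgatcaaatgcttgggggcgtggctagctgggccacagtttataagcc
Ifit3: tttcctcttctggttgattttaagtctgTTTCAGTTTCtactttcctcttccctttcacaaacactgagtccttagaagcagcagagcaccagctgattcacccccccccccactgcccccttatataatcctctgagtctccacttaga
Isg15: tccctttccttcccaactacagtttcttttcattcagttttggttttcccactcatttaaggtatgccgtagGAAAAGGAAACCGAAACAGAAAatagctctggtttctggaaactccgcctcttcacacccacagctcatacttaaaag

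Cell cycle genes rose in this interval. All 25 mitosis genes rose (median 1.31) and 27 of 34 DNA replication genes rose (median 0.84). Cdk1, the mitotic kinase, rose from 37.1 and 33.7 CPM to 82.4 and 90 CPM. The cyclin genes Ccna2, Ccnb1 and Ccnb2 rose 2.36-fold, 2.28-fold and 3.25-fold. The kinase genes Aurkb and Plk1 rose from 8.78 and 9.53 CPM to 30.6 and 32.9 CPM and from 6.96 and 6.16 CPM to 21.4 and 22.7 CPM. Mki67, the proliferation marker Ki-67, rose from 125 and 123 CPM to 217 and 237 CPM. These levels remained under those at 0 hpi: the 25 genes summed to 639 and 621 CPM at 18 hpi and 1398 and 1487 CPM at 120 hpi, against 4802 and 4770 CPM at 0 hpi. Of the helicase genes that open replication origins, Mcm2, Mcm3 and Mcm4 rose 1.85-fold, 2.73-fold and 1.7-fold. The licensing factor gene Cdt1 alone fell (61.1 and 58.8 CPM to 34 and 28.4 CPM). Of 14 G1 regulators 4 rose and 4 fell. The D-type cyclins moved apart. Ccnd1 rose from 159.8 and 151 CPM to 442 and 433 CPM and Ccnd3 from 49.2 and 54.2 CPM to 120.0 and 112 CPM, whereas Ccnd2 fell from 398 and 392.2 CPM to 140.1 and 136 CPM. The cyclin-dependent kinase inhibitor genes Cdkn2b, Cdkn1c and Cdkn1a fell 4.35-fold, at least 13.9-fold and 2.46-fold, and Cdkn2c and Cdkn2d rose, the former 2.54-fold.

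Mitosis promoters are known for CCAAT boxes and for the cell cycle homology region, TTTGAA. The letters CCAAT were found, on either strand of the 250 bases before the start, in 17 of the 19 mitosis genes with a promoter in the table (89.5%) and in 37.5% of 27025 genes. TTTGAA was found in 8 of the 19 (42.1%) and in 18.3% of all genes. The promoters of Ccnb2 (chr9:70421555-70421704, minus strand) and Cdk1 (chr10:69352913-69353062, minus strand) are printed because their spacing of the letters differs. In the 150 bases before its start Ccnb2 holds 3 CCAAT boxes, while Cdk1 holds 2 in the opposite direction and 2 matches to TTTGAA (capitals). Ccnb2 is also among the 8 genes with TTTGAA, but its match lies outside the printed bases.
Ccnb2: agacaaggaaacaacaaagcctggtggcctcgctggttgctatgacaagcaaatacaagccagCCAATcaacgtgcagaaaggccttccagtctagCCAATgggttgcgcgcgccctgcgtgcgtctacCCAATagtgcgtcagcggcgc
Cdk1: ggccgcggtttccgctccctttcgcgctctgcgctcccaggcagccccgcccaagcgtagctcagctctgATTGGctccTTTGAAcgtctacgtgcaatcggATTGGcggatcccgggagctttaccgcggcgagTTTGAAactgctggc

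Other words were searched in the same window. TTCCCGC, an E2F-like word, stood in 6 of 26 DNA replication genes (23.1%) and 4.38% of all genes. TCACGTG, the core of the lysosomal CLEAR element, stood in 8 of 21 lysosome genes (38.1%) and 3.58% of all genes, and a sterol element-like pair of TCAC and CCAC around 1 free base in 1 of 14 cholesterol synthesis genes (7.14%) and 1.22% of all genes. For PU.1 the result depended on the length of the word. GAGGAA followed by GT stood in 0 of 12 surface receptor genes and 1 of 9 complement genes (11.1%), against 2.79% of all genes. The shorter GAGGAA, searched only after the longer word had been counted, stood in 8 of 12 (66.7%) and 3 of 9 (33.3%), against 25.9% of all genes.

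Of 20 ribosome biogenesis genes 6 fell and 0 rose (median −0.42), a share of falls near that of all genes tested (29.4%). The 6 falls became 3 without either 18 hpi library, and 4 without replicate 1 at 120 hpi, with DESeq2 size factors, by the DESeq2 Wald test or with the filter of at least 10 counts. Of the 20, 0 had a log2 fold change above 0 at an unadjusted p under 0.05, and 0 rose by the DESeq2 Wald test. The nucleolar protein genes Ncl and Npm1 fell from 921 and 927 CPM to 569 and 586 CPM and from 276 and 270.1 CPM to 148 and 167 CPM. Ncl was under the threshold when either 18 hpi library or replicate 1 at 120 hpi was left out (log2 fold change −0.58 to −0.56). Polr1a, the large subunit of RNA polymerase I, fell 1.85-fold. Fbl had 15.6 and 13.2 CPM and 14.2 and 16.6 CPM. Of 21 cholesterol synthesis genes 15 rose and 2 fell (median 0.85). Dhcr7, the last reductase of the pathway, rose from 8.13 and 9.27 CPM to 36.7 and 39.1 CPM and Mvd, a decarboxylase of the mevalonate pathway, from 16.3 and 15 CPM to 59.8 and 52.6 CPM. Hsd17b7, another reductase of the pathway, fell 2.7-fold.

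Genes of stem and progenitor cells all fell (7 of 7 tested, median −4.56). Cd34 had 19.1 and 18 CPM at 18 hpi and 0 counts in both libraries at 120 hpi, which is at least 81.4-fold lower. Kit, the receptor for stem cell factor, fell from 3.84 and 3.63 CPM to 0 and 0.144 CPM, Hoxa9 from 20.4 and 19.4 CPM to 2.88 and 1.58 CPM and Flt3 from 2.47 and 2.28 CPM to 0.40 and 0.36 CPM. Fibroblasts also express several of these genes, and feeder marker RNA fell in the same libraries, and its part in the falls was not tested. Of 8 osteoclast genes 4 rose (Mmp9, Dcstamp, Ocstamp and Atp6v0d2) and 3 fell (Oscar, Nfatc1 and Ctsk). These counts were not stable: 3 rose and 2 fell by the DESeq2 Wald test, in the fit of the compared groups alone and without replicate 1 at 18 hpi, 3 rose and 1 fell without replicate 1 at 120 hpi, and 4 rose and 1 fell without replicate 2 at 18 hpi or with the filter of at least 10 counts. Mmp9, a matrix protease, rose from 14.4 and 14.6 CPM to 44.8 and 48.5 CPM and Dcstamp, which acts in cell fusion, from 1.37 and 0.673 CPM to 2.64 and 2.66 CPM, while Acp5, the marker enzyme TRAP, had 6.05 and 5.96 CPM and 4.48 and 6.19 CPM and Nfatc1, the main osteoclast factor, fell from 125 and 124 CPM to 83.6 and 77.5 CPM. Nfatc1 was under the threshold in 7 alternative settings, among them the omission of any of the 4 libraries (log2 fold change −0.58 to −0.46).

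The feeder fibroblast markers fell by unequal amounts. Thy1, a surface glycoprotein, fell from 277 and 273 CPM to 0.48 and 0.432 CPM (595-fold) and Acta2, smooth muscle actin, from 1497 and 1509 CPM to 41.2 and 43.9 CPM (35.3-fold). The collagen genes Col3a1 and Col1a1 fell from 247 and 245 CPM to 8.95 and 11.8 CPM and from 619 and 627 CPM to 109 and 101 CPM. Col1a2 and Pdgfra fell the least, from 625 and 611 CPM to 266 and 263 CPM and from 150.1 and 145 CPM to 52.2 and 60.6 CPM. The falls ranged from 2.34-fold to 595-fold over these markers, and the cause of this spread was not tested.

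Of the genes with a mean of at least 10 CPM in the higher group, the 10 with the largest rise were Slfn1, Ccl12, Mgl2, Slfn4, Gm4951, Clec10a, Ifi214, Lyve1, Siglec1 and Trim30c. Slfn1 on mm10 chr11:83116849-83122670, a Schlafen family gene of immune cells, had 0 and 1 counts at 18 hpi and 90.4 and 103 CPM at 120 hpi, at least 551-fold higher. Its neighbour Slfn4 rose from 0.13 and 0.363 CPM to 71.1 and 73.1 CPM. Mgl2 and Clec10a encode galactose-type lectins of macrophages: Mgl2 rose at least 133-fold to 24.6 and 21.9 CPM and Clec10a from 0.59 and 0.777 CPM to 119 and 123 CPM. Lyve1, a hyaluronan receptor of tissue macrophages and lymphatic vessels, rose at least 81.7-fold to 13.8 and 14.9 CPM. Ifi214, a gene of the interferon-inducible Ifi200 family, reached 9.83 and 11.1 CPM. Slfn, Ifi200 and Trim30 genes belong to families of near copies, so reads may be split among members.

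The 10 with the largest fall were Dlk1, Col11a1, Igfbp3, Gm53, Efs, Gpc3, Tll1, Hoxd13, Rgs17 and Slitrk5. Each had 0 counts in both libraries at 120 hpi. Dlk1 on mm10 chr12:109452823-109463336, an imprinted gene of embryonic mesenchyme, had 67.8 and 67.9 CPM at 18 hpi, so that it fell at least 298-fold. Col11a1, a fibrillar collagen, had 67.8 and 64.7 CPM and Igfbp3, a binding protein of insulin-like growth factors, 59.3 and 60.2 CPM. Hoxd13, a homeobox gene of the distal limb, had 30.1 and 29.6 CPM and Gpc3, a glypican of embryonic tissues, 35.6 and 35.3 CPM. These genes were already present at 0 hpi, at 78.7 CPM for Dlk1 and 41.7 CPM for Col11a1. They fell in the libraries in which feeder marker RNA fell, and its part in these falls was not tested.

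**Figure D3:**
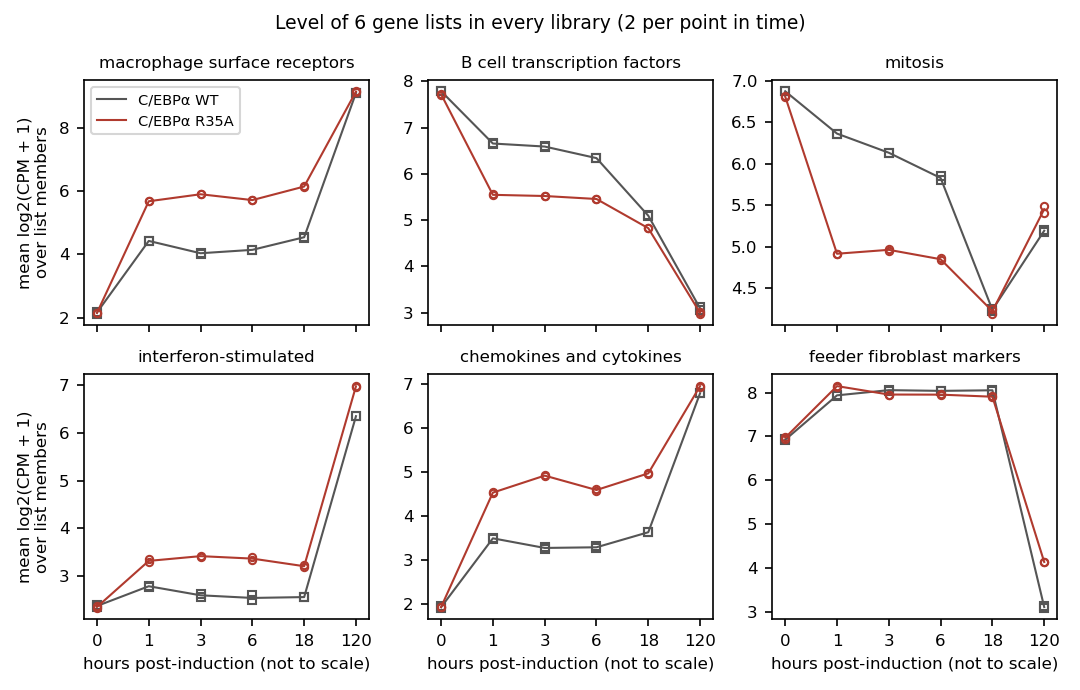
Mean log2(CPM + 1) over the tested members of 6 lists (y axis) in every WT (grey squares) and R35A (red circles) library, by timepoint from 0 to 120 hpi (x axis, not to scale). Lines join the means of 2 replicates. From 18 to 120 hpi the receptor, chemokine and interferon-stimulated lists go up and the B cell and feeder lists go down in both constructs, and mitosis genes turn upwards after their lowest point at 18 hpi.

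WT cells underwent the same interval with 10279 of 16988 genes changed (60.5%), 4667 upwards (27.5%) and 5612 downwards (33.0%). The constructs share no library. Of the genes that rose in R35A cells, 3579 also rose in WT cells (85.81% of the R35A and 76.69% of the WT genes), and 4375 fell in both (87.54 and 77.96%), and 57 genes changed in opposite directions. The test of the difference itself called 3814 genes (22.5%), with a more positive change in R35A cells for 2005 (11.8%) and a less positive one for 1809 (10.6%). The surface receptors rose less in R35A cells in 16 of 19 cases. Csf1r had 151 and 146 CPM at 18 hpi and 2117 and 2084 CPM at 120 hpi in WT cells, where R35A cells had 622 and 631 and then 1743 and 1766 CPM, a difference of −2.34 ± 0.046 SE on the log2 scale (edgeR interaction, adjusted p = 1.62e-66). Cd14 had 22.2 and 23.3 CPM and then 1334 and 1337 CPM in WT cells (difference −2.78 ± 0.062 SE). In both genes the 18 hpi values of R35A cells lay above those of WT cells and the 120 hpi values below them. The sum over the 19 receptor genes was higher in R35A cells at both timepoints. At 18 hpi it was 2409 and 2431 CPM against 739.3 and 736.5 CPM in WT cells. At 120 hpi the sum was 15190 and 15540 CPM against 14820 and 14570 CPM. Spi1 began at 44 and 44.5 CPM in WT cells and reached 389 and 366 CPM, close to the R35A level (difference −1.43 ± 0.062 SE). Likewise 21 of 30 chemokine and cytokine genes, 13 of 18 macrophage transcription factors, 9 of 11 MHC class II genes and all 6 oxidase genes had a lower change in R35A cells.

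For some genes the direction or the call differed between the constructs. Acod1 fell in R35A cells and rose in WT cells, from 6.06 and 6.1 CPM to 23.5 and 25 CPM, where R35A cells ended at 20.4 and 20.8 CPM (difference −3.95 ± 0.13 SE). Egr1 had 430.1 and 416 CPM and 403 and 397 CPM in WT cells (difference −1.17 ± 0.049 SE) and Bhlhe40 556 and 549 CPM and 619.6 and 639 CPM (difference −1.32 ± 0.045 SE). H2-Ab1 rose in WT cells from 10.1 and 8.7 CPM to 27.1 and 23.1 CPM (difference −1.52 ± 0.15 SE). A few macrophage genes rose more in R35A cells. Marco reached 13.8 and 12.5 CPM in WT cells and 103 and 101 CPM in R35A cells (difference 2.29 ± 0.22 SE), Gas6 251 and 234 and 603 and 598 CPM (difference 1.6 ± 0.055 SE) and Ccl12 143 and 127 and 303 and 341 CPM (difference 1.42 ± 0.40 SE, not called without WT replicate 2 at 18 hpi, where it was 1.23 at an edgeR adjusted p of 0.069). Ccnd1 went from 194 and 199 CPM to 239.7 and 239.8 CPM in WT cells (difference 1.21 ± 0.050 SE). Of 13 feeder markers 10 fell less in R35A cells and Thy1 fell more. Their sum was 9294 to 9472 CPM at 18 hpi and 208 to 237 CPM at 120 hpi in WT cells. In R35A cells this sum was 5881 and 5902 CPM at 18 hpi and 678 and 676 CPM at 120 hpi. The part of this unequal feeder RNA in the differences between the constructs was not tested.

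The 5 genes with the lowest difference from WT were Mefv, Gm9733, 2200002D01Rik, Gm53 and Csf3r. Mefv at mm10 chr16:3707218-3718097, which encodes pyrin, had 0.781 and 0.466 CPM and then 2.48 and 2.66 CPM in R35A cells, against 0.13 and 0.237 CPM and then 36.1 and 34.5 CPM in WT cells (difference −5.44 ± 0.63 SE). Csf3r, the receptor for the granulocyte factor G-CSF, had 13.1 and 13.1 and then 106 and 98 CPM in R35A cells, against 0.977 and 1.36 and then 158 and 152 CPM in WT cells (difference −4.08 ± 0.18 SE). Gm9733 rose in WT cells (0.391 and 0.296 to 16.1 and 15.7 CPM) and was not called in R35A cells (1.37 and 1.04 to 1.6 and 1.94 CPM), and the difference itself was −4.92 ± 0.51 SE. Gm53 and 2200002D01Rik had 0 counts in R35A cells at 120 hpi and rested on WT replicate 2 at 120 hpi (0 and 0.448 CPM and 0.0829 and 0.448 CPM in the WT libraries): without it the differences were 0.19 (edgeR adjusted p = 1) and −3.24 (0.296), and neither was called without either R35A library at 120 hpi. The 5 with the highest difference, Arhgap44, Sox5, Usp13, Efna3 and Abat, were all at 0 counts in WT cells at 120 hpi. Arhgap44 fell from 16.4 and 17.2 CPM to 0.40 and 0.216 CPM in R35A cells and from 23.3 and 22 CPM to 0 counts in WT cells. R35A cells also had few counts at 120 hpi: 4 and 4 for Sox5, 1 and 9 for Usp13, 4 and 2 for Efna3 and 3 and 1 for Abat. Abat was thus at the floor in both constructs. The fitted differences of the 5 genes depend on how a count of 0 is treated and are not bounds. The part of feeder RNA in the counts of these genes was not tested. Calls were lost in 5 of the leave-one-out fits for Usp13 (edgeR adjusted p 0.069 to 0.379), in 3 for Abat (0.0994 to 0.221) and in 2 for Efna3 (0.0571 and 0.078). For all 3 these included the omission of a library at 120 hpi, where R35A replicate 2 for Usp13 moved the difference to 3.56.

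**Figure D4:**
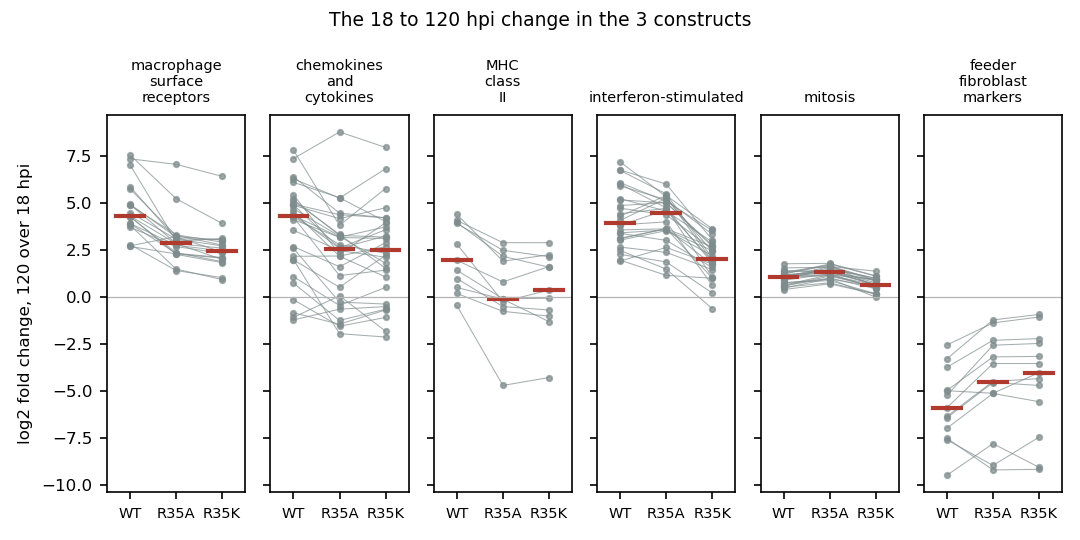
Log2 fold change from 18 to 120 hpi (y axis) of the members of 6 lists in WT, R35A and R35K cells. Each grey line is 1 gene and red bars are list medians. The receptor medians are 4.31, 2.85 and 2.45, and the interferon-stimulated medians 3.96, 4.47 and 2.0, in that order.

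In R35K cells, fitted alone from their own count table, 8747 of 16434 genes changed (53.2%). The R35K counts were deposited apart from those of WT and R35A. In the differences below, mutant and set of libraries therefore cannot be told apart. The difference between the R35A and R35K changes was tested in a fit of all 36 libraries, a test added after the data were seen. It called 1050 of 17277 genes (6.08%), of which 747 had a more positive change in R35A cells (4.32%) and 303 a less positive one (1.75%). The interferon-stimulated genes stood out in number: 25 of 26 rose more in R35A than in R35K cells, with a median difference of 1.91. The median log2 fold change of the list was 4.47 in R35A, 3.96 in WT and 2.0 in R35K cells. Mx1 rose by 5.49 on the log2 scale in R35A cells and by 2.07 in R35K cells (difference 3.47 ± 0.12 SE, edgeR adjusted p = 9.03e-45). Irf7 differed by 2.39 ± 0.11 SE and Oasl2 by 3.01 ± 0.12 SE. Ifitm3 was the 1 member without a called difference. Against WT, 3 members had a higher change in R35A cells (Isg15, Usp18 and Ddx58) and 9 a lower one.

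The mitosis genes also differed, with 19 of 25 rising more in R35A than in R35K cells (median difference 0.68) and 13 of 34 DNA replication genes doing so. Ccnb2 rose by 1.70 on the log2 scale in R35A cells and 0.56 in R35K cells (difference 1.19 ± 0.11 SE) and Mki67 by 0.87 and 0.18 (difference 0.74 ± 0.054 SE). Against WT, Cenpf was the 1 mitosis gene with a called difference, and its change was higher in R35A cells. Feeder markers bore no such difference in number: 0 of 13 had a higher and 1 a lower change in R35A than in R35K cells, that gene being Dcn, and the surface receptors had a higher change in 5 of 19 cases (Csf1r, Fcgr1, Trem2, Siglec1 and Clec7a) and a lower one in 0. Pax5 fell less in R35A cells, with a log2 fold change of −4.62 against −6.22 in R35K cells (difference 1.64 ± 0.28 SE).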

How the data were processed

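RNA was measured by RNA-seq in 36 libraries, 2 replicates for each construct and timepoint, grouped by sample title. FastQC was used for read quality, and STAR 2.5.0a for alignment to mm10 and for counting reads per gene. The authors deposited raw counts for 40354 genes in 2 tables, 1 of them for R35K. The annotation release and the strand column of the counting are not given in the sources used here. Log2 tables of counts normalized by the authors with DESeq2 (1.14.1 in the submitters' processing notes) were not used here. All columns could be assigned to a sample.

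Counts were analysed with edgeR 4.0.16 in R 4.3.3. The 24 WT and R35A libraries (12 groups) were fitted together after filterByExpr and TMM scaling, with quasi-likelihood F tests. Calls required a change of at least 1.5-fold together with an adjusted p (Benjamini-Hochberg) no higher than 0.05. Standard errors (SE) were derived from the F statistic. R35K was fitted alone for its own change and together with the other 24 libraries for the difference from R35A. The R35A change and its difference from WT were recomputed with other thresholds and filters, a replicate block and without each compared library in turn. They were also refitted with only the compared groups, and with size factors or the Wald test of DESeq2 1.42.0. The difference from R35K was recomputed at 2-fold, without the low-count filter, with the replicate block, with DESeq2 size factors and without each compared library. The calls within WT and within R35K cells were not recomputed. The code was tested on simulated counts. A gene with 3 or fewer counts in both libraries of a group was at the floor, which stood in for its level (3 counts per library) in any fold.

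The genes and lists were chosen with earlier results of these data known. The naming rule took the 10 highest and 10 lowest log2 fold changes among called genes whose timepoints did not overlap and whose higher mean was at least 10 CPM, the first 3 members of each list with the called members that had its 3 highest and 3 lowest log2 fold changes, and the 5 highest and 5 lowest called differences from WT with a mean of at least 10 CPM in any of the 4 groups. Genes named outside this rule (Cdkn1a, Cdkn2d, Cenpf, Clec7a, Csf1, Cxcl3, Ddx58, Gata2, H2-DMb2, Id2, Ifit3, Ighm, Il7r, Isg15, Myc, Ocstamp, Pparg, Rsad2, Trem2 and Usp18) were chosen after their values were seen, and some genes of the lists are not reported here by name. Replicate numbers were not treated as pairs in the main fit. Over 66 pairs of groups the median correlation of replicate differences was 0.00139, and 2 pairs were above 0.1. Between R35A at 18 and 120 hpi it was 0.000491. Much of these differences was counting noise (1.112 and 2.032 times that noise in R35A cells at 18 and 120 hpi). A low correlation therefore cannot exclude pairing. Coordinates are from GENCODE vM21 (mm10). Promoters were searched for 8 pairs of a list and a word, and for 2 more with a shortened PU.1 word added after the first counts were seen.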

Additional observations from a re-analysis of the deposited data

Results flagged for a closer look

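By the test of the difference itself, the change from 18 to 120 hpi differed between R35A and WT cells for 3814 genes and, in the joint fit, between R35A and R35K cells for 1050 genes. Values below are log2 differences, the R35A change minus that of the other construct, and not differences in level. Itgam and Csf1r, for example, both had a less positive change in R35A than in WT cells. At 120 hpi Itgam was higher in R35A cells (554 and 594 CPM against 464 and 462 CPM in WT cells). Csf1r was lower in R35A cells (1743 and 1766 CPM against 2117 and 2084 CPM).

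Against WT, macrophage genes with a less positive change in R35A cells were Csf1r (−2.34), Cd14 (−2.78), Itgam (−1.57), Spi1 (−1.43), Apoe (−2.55), Ncf4 (−2.23), Lyz2 (−1.24), Csf3r (−4.08) and Mefv (−5.44). So were the inducible genes Acod1 (−3.95), Egr1 (−1.17) and Bhlhe40 (−1.32), the class II genes H2-Ab1 (−1.52) and Cd74 (−1.80) and the lymphoid factor gene Irf4 (−1.91). A more positive change was measured for Marco (2.29), Gas6 (1.59), Ccl12 (1.42) and Ccnd1 (1.21). Of the feeder markers named, Col1a1 fell less in R35A cells (2.67) and Thy1 fell more (−1.69). The lowest other differences were those of Gm9733 (−4.92), 2200002D01Rik (−4.66) and Gm53 (−4.60), of which the last 2 were lost without WT replicate 2 at 120 hpi (−3.24 and 0.19). The highest were those of Arhgap44 (5.71), Sox5 (5.66), Usp13 (5.60), Efna3 (5.29) and Abat (4.94), each with 0 counts in both WT libraries at 120 hpi, so that the fitted value depends on how a 0 is treated. In the R35A libraries at 120 hpi these genes had at most 9 counts each.

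Against R35K, the interferon-stimulated genes Mx1 (3.47), Oasl2 (3.01) and Irf7 (2.39) had a more positive change in R35A cells, as had the mitosis genes Ccnb2 (1.19) and Mki67 (0.74) and the B cell factor gene Pax5 (1.64). Mutant and set of libraries cannot be told apart in these values.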

How the results depend on the processing

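Alternative scaling, filters, tests and a fit of the compared groups alone gave 8516 to 9524 called genes in R35A cells, against 9169. For the difference from WT they gave 3374 to 3828, against 3814, both for the change from 18 to 120 hpi. Thresholds moved these counts more: at 2-fold 6830 genes, 2427 differences from WT and 412 from R35K were called, and with no fold threshold 12993 genes and 7082 differences from WT. Leave-one-out counts were 8932 to 9087, 3530 to 3693 and, against R35K, 907 to 1124; the lone library was then assumed to vary like the other groups. With the replicate block 9151 genes, 3794 and 1035 differences were called, 9145 of the 9151 genes being called in the same direction without it; the block cost Usp13 its difference from WT (5.61, edgeR adjusted p = 0.0512) and changed no other call of a named gene. The median log2 fold change of all genes was −0.06, and 0.07 when at least 10 counts were required. The sign turned only for genes without a call and for Gm53. It did so for H2-Ab1 (−0.06199 to 0.08808), Ciita (−0.12 to 0.13), Cd79b (−0.04301 to 0.08557) and Acp5 (−0.31 to 0.14) over the omission of each R35A library, and for Gm53 minus WT (−5.76 to 0.19). Gm53 also lost its call under the DESeq2 Wald test (−3.71, adjusted p = 0.0515) and with no low-count filter (−4.55), as did Abat with no filter (4.91). List medians turned sign for MHC class II (−0.12 to 0.70), G1 regulators (−0.05 to 0.12) and the sparse T and NK cell markers (−2.91 to 1.66). The causes were not tested. With 2 libraries a group, genes near 3 counts are limited by depth.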

Other observations

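For 4 genes the change from 18 to 120 hpi was not called in R35A cells and was lower than in WT cells by the test of the difference. Id2, an inhibitor of E proteins, had 422 and 419 CPM and then 419.7 and 380.3 CPM in R35A cells and 216 and 216 CPM and then 545 and 545 CPM in WT cells (log2 difference −1.41 ± 0.052 SE). Pparg, a nuclear receptor of lipid-handling macrophages, had 12.2 and 13.1 CPM and then 10.6 and 12.4 CPM, against 8.73 and 6.57 CPM and then 22.6 and 24.3 CPM (difference −1.75 ± 0.16 SE). Myc, a growth factor-induced regulator, had 64.4 and 68.7 CPM and then 65.3 and 60.6 CPM, against 49.6 and 52.9 CPM and then 129 and 132 CPM (difference −1.43 ± 0.074 SE). Il7r, the IL-7 receptor chain of B cell precursors, had 67.7 and 70.6 CPM and then 49.4 and 51.7 CPM, against 27.6 and 29.2 CPM and then 101 and 114 CPM (difference −2.37 ± 0.083 SE). In all 4 genes the 18 hpi level was higher in R35A than in WT cells and the 120 hpi level was lower. These genes were chosen after their values were seen.

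Ighm, the heavy chain of IgM, ended lower in R35A cells (178 and 186 CPM to 21.7 and 26.1 CPM) than in WT cells (308 and 305 CPM to 108 and 104 CPM), with a difference in change of −1.39 ± 0.059 SE. The fall of Gata2, a progenitor factor, was not called as different between the constructs (16.8 and 15.8 CPM to 0.72 and 0.647 CPM in R35A and a 120 hpi level of 0.332 and 0.358 CPM in WT cells).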
